A study of Homo sapiens with 4 samples.

Results

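The 10 genes described here encode cytoplasmic intermediate filament proteins: 9 keratins and vimentin. They were named in a list drawn up with results of the same knockdown comparison in view, so their values are given as a description and without tests. All 10 symbols were matched, out of 58884 genes in the count tables. The genes are 5 type II keratins (KRT7, KRT8, KRT80, KRT81 and KRT86), 4 type I keratins (KRT18, KRT19, KRT20 and KRT23) and VIM, a type III filament gene. Of these, 8 passed the filter on low counts, while KRT23 and KRT86 did not. The tables name them by Ensembl identifier, such as ENSG00000167767 for KRT80, ENSG00000170421 for KRT8, ENSG00000111057 for KRT18 and ENSG00000026025 for VIM.

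Keratin filaments form when 1 type I and 1 type II protein pair as an obligate heterodimer, and the pairs assemble into the network that carries mechanical load in epithelial cells. KRT8 with KRT18 is the basic pair of simple epithelia, including the gut, and KRT19 joins it there. Vimentin builds filaments by itself and is typical of mesenchymal cells, and many cultured carcinoma lines also make it.

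The libraries, 2 control and 2 with RALY knocked down, are from HCT116, an established human colorectal carcinoma line. RALY belongs to the hnRNP proteins, which bind RNA. Per the labels, cells received lentivirus for 72 h with a hairpin that targets RALY or is nonsilencing. Yet the source names call the controls untreated, and the control titles read WT. Which of these the controls were is not settled. The cell line field gives HCT-116 for all 4 libraries, while the source names of replicate 2 in both groups read HCT-117. The labels name no separate cultures within a group, so p-values reflect how far these 4 libraries differ, possibly for technical reasons alone.

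Library totals ran from 13360007 to 16847520 counts. RALY had 1903 and 2132 counts in control and 634 and 522 in knockdown libraries, a log2 fold change of -1.84 (SE 0.127, edgeR adjusted p = 6.59e-06). Over all 19686 genes tested, 25.6% were called at an adjusted p under 0.05, with 12.5% higher and 13.1% lower. Without control replicate 1 or 2 the number of called genes fell from 5048 to 1008 and 984. Of 8 colorectal epithelial markers all had counts, with a summed level of 385 to 402 CPM (counts scaled per 1e6 of the library) in the controls and 346 to 351 CPM after knockdown. Of the 7 tested, CLDN7 and CDX2 were called lower (edgeR adjusted p = 0.0392 and 0.0311), beside 13.1% of all tested genes. CDH1 and GPA33 lay lower in both knockdown libraries without a call. CLDN4 lay higher in both, at 92.9 and 95.4 CPM in control and 96.5 and 105 CPM in knockdown libraries, without a call. EPCAM and VIL1 overlapped between the groups. VIL1 and CDH17, which mark colonocytes, were near 0, at 0.822 and 0.305 CPM in the controls. In bulk RNA, fewer cells of a type and less RNA per cell cannot be told apart.

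Some members have close copies in the genome, and these sequences are examples of how alike such copies are. KRT81 and KRT86 are hair keratin genes whose coding sequences were 96.6% identical over 1324 aligned bases, with an identical run of 605 bases. The following 90 bases of that run are the same at chr12:52291316-52291405 (KRT81, minus strand) and chr12:52301977-52302066 (KRT86, plus strand), so a read inside it cannot be placed by sequence.
KRT81 and KRT86: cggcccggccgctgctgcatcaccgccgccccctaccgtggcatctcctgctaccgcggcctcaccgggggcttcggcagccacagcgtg
KRT8 and KRT18 have many processed pseudogenes, spliced copies put back into the genome. The first 60 coding bases of KRT18 are set against those of KRT18P59, its copy with the smallest p, with differing bases in capitals (GRCh38, GENCODE transcripts). KRT18 lies at chr12:52949174-52949233 (plus) and KRT18P59 at chr11:125113570-125113629 (plus).
KRT18: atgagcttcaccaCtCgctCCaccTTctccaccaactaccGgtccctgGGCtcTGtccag
KRT18P59: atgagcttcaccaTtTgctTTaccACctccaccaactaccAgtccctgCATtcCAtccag
The sequences differ at 12 of these 60 bases. KRT18P59 was the least identical to its parent of the 7 tested KRT18 copies, at 84.2% against a median of 91.2%. The same comparison of KRT8 with KRT8P46, its copy with the smallest p, gave 1 differing base in 60. Over 1452 aligned bases KRT8P46 was less alike, at 90.1% against a median of 91.8% for the 8 tested KRT8 copies.

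The type II keratin KRT80 had the largest difference of the list. KRT80, expressed in many epithelia and tied to cell junctions as cells differentiate, spans chromosome 12 from 52168996 to 52192014 (GRCh38, minus strand). It had 256 and 459 counts in control and 2166 and 1864 in knockdown libraries, or 19.4 and 26.6 CPM against 135 and 125 CPM. Both knockdown libraries lay far above both controls. The means were 23.0 ± 5.06 and 130 ± 6.92 CPM (SD, n = 2 each), and the log2 fold change was 2.49 (SE 0.149), or 5.63-fold. With 1 library left out in turn it ran from 2.26 (without control replicate 1) to 2.73 (without control replicate 2). Its span overlaps LINC00592 on the other strand without shared exon bases.

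KRT7, a simple epithelial type II keratin usually scarce in colon, lies near KRT80 on chromosome 12 (52232520 to 52252186, plus strand). Its level was 5.31 and 5.78 CPM in control libraries and 11.4 and 9.35 CPM after knockdown, from 70 and 100 against 182 and 139 counts. The groups did not overlap, and the log2 fold change was 0.90 (SE 0.239), ranging from 0.73 to 1.02 with 1 library left out. It shares 282 exon bases, 7.05% of its own, with KRT7-AS on the other strand, which had 3 and 1 counts in control and 12 and 5 in knockdown libraries. The sources used here do not give whether strand was used in counting.

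The hair keratins KRT81 and KRT86 were scarce and went opposite ways. KRT81 (chromosome 12, 52285913 to 52291534) had 7 and 9 counts in control and 19 and 36 in knockdown libraries, a log2 fold change of 1.76 (SE 0.490). The second knockdown library carried much of that: the value was 1.16 without knockdown replicate 2 and 2.17 without knockdown replicate 1. KRT81 had 0.531 and 0.521 CPM in the controls, under the filter level of 0.640 CPM, so only a rise could bring it into the test. KRT86 (52249300 to 52309163) had 8 and 10 counts in control and 5 and 5 in knockdown libraries, too few for the test. Their shared sequence makes the split of reads between these genes uncertain. KRT83, whose coding sequence was 94.1% identical to that of KRT81 where aligned, had 3 and 3 counts in control and 1 and 1 in knockdown libraries.

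KRT8, the main type II keratin of simple epithelia, showed no separation of the groups in deposited counts. It had 206 and 172 CPM in control libraries and 190 and 207 CPM after knockdown (log2 fold change 0.07, SE 0.128). Its type I partner KRT18 had 144 and 117 CPM in control libraries and 140 and 160 CPM after knockdown (log2 fold change 0.20, SE 0.130). For each gene the first knockdown library fell between the controls. KRT19, the smallest keratin and one without a typical tail domain, had 129 and 105 CPM against 120 and 126 CPM (log2 fold change 0.07, SE 0.123). Leaving out 1 library gave -0.07 to 0.17 for KRT8, 0.05 to 0.32 for KRT18 and -0.08 to 0.19 for KRT19. The 2 neighbours KRT8 (52897187 to 52949954, minus) and KRT18 (52948871 to 52952906, plus) share 525 exon bases on opposite strands, 7.63% of the exon bases of KRT8 and 17.1% of those of KRT18.

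The remaining type I keratins were near the detection limit. KRT20, a marker of differentiated colonocytes and of colorectal cancers, had 9 and 12 counts in control and 16 and 7 in knockdown libraries. Its log2 fold change of 0.10 (SE 0.513) was -0.56 without knockdown replicate 1 and 0.53 without knockdown replicate 2, so no direction can be read. KRT23 had 1 and 3 counts in control and 3 and 2 in knockdown libraries, at or under the floor of 3 counts used here, and no fold is given. KRT19, KRT20 and KRT23 lie in the type I cluster on chromosome 17, KRT19 at 41523617 to 41528308 and KRT20 at 40875941 to 40885227.

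**Figure D1:**
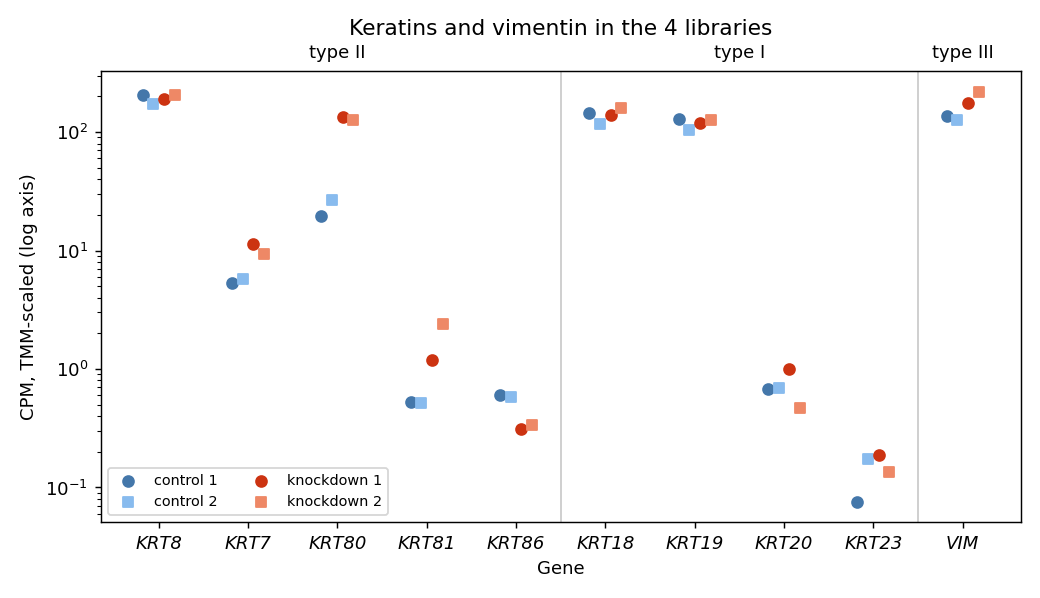
TMM-scaled CPM on a log axis for the 10 genes, 1 point per library, grouped by filament type. KRT80 goes from 19.4 and 26.6 CPM in the controls to 135 and 125 CPM in the knockdown libraries, while KRT8 and KRT19 overlap between the groups.

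VIM spans chromosome 10 from 17228241 to 17237593 on the plus strand. It was higher in both knockdown libraries, at 137 and 125 CPM in control libraries and 175 and 219 CPM after knockdown. The groups did not overlap, and the second knockdown library was the highest. The means were 131 ± 8.19 and 197 ± 31.5 CPM (SD, n = 2 each), with a log2 fold change of 0.59 (SE 0.132), from 0.41 without knockdown replicate 2 to 0.72 without knockdown replicate 1. Markers of other cell types that make vimentin moved both ways. The 8 fibroblast markers summed to 127 to 148 CPM in control libraries and 103 to 133 CPM after knockdown, mostly COL1A1 (121 and 95.5 CPM on average). PDGFRB, a receptor of mesenchymal cells, was higher in both knockdown libraries, at 15.2 ± 0.0801 and 20.9 ± 0.633 CPM (edgeR adjusted p = 0.0797), and so were the scarce COL3A1 and FAP. DCN, LUM and COL1A2 averaged under 0.4 CPM in each group. The 8 leukocyte markers summed to 32.3 to 35.6 CPM and 29.9 to 31.5 CPM, mostly CD68, with NKG7 at 0 throughout and PTPRC averaging 0.154 and 0.382 CPM. CD79A and LYZ were higher in both knockdown libraries at levels under 5 CPM. None of the 6 tested fibroblast and leukocyte markers was called by edgeR, though 5 had an unadjusted p under 0.05, among them COL1A1 and CD68 with lower and PDGFRB and CD14 with higher means after knockdown, and DESeq2 called 0. The part of these markers in the VIM difference was not tested.

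The antisense RNA VIM-AS1 starts inside VIM and runs across its promoter. It had 13.1 and 15.4 CPM in control libraries and 7.86 and 10.6 CPM after knockdown, the opposite direction to VIM, with groups that did not overlap (log2 fold change -0.63, SE 0.227, edgeR adjusted p = 0.0601). The genes share 641 exon bases, 12.4% of those of VIM, where reads of the 2 strands cannot be told apart without strand. The RefSeq promoter table (GRCh38.p14) held 3 of the 10 genes, KRT8, KRT20 and VIM. Its KRT8 entry lies at the start of a long isoform, away from that of the canonical transcript, and was left out. The 250 bases before the VIM start, which VIM-AS1 spans, are shown because the antisense gene runs through them (chr10:17227991-17228240, plus strand), with a GC box in capitals.
VIM promoter: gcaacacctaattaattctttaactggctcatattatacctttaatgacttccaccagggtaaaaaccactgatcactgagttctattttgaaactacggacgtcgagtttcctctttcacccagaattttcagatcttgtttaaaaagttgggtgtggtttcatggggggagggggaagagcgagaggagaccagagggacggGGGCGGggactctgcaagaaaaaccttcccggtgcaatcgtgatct
Searched on both strands, the GC box GGGCGG was found once in the 250 bases before VIM and not before KRT20, against 42.6% of 35116 promoters of that length. The letters of TATAAA (10.7% of promoters), TGANTCA (the AP-1 motif, 6.57%), CAGGTG (an E-box, 17.5%) and GGAATG (the TEAD motif, 11.9%) are in neither window.

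In all, 4 of the 10 genes (KRT7, KRT80, KRT81 and VIM) lay higher in both knockdown libraries than in both controls, as 32.3% of all tested genes did. KRT86 alone lay lower in both, as 31.3% of tested genes did, and 5 genes overlapped. Since the genes were chosen with this comparison in view, nothing is read from these numbers.

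The abundant members had between 1 and 2 counts per base of transcript, and few genes passed 2. If reads with the same start and strand were counted once, which no source used here gives, a transcript could hold at most 2 counts per base. Occupancy is the mean count as a percent of that limit, taken over the canonical transcript. Only 53 of 19869 protein-coding genes exceeded an occupancy of 100%. KRT8 reached 82.8%, KRT18 75.6%, KRT19 65.7% and VIM 58.2%, while KRT80 was at 15.3% and KRT7 at 3.78%. Under such a limit, counts near it would understate differences between libraries.

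Counts corrected for such a limit gave larger values for the abundant genes. With canonical transcript lengths the log2 fold change of VIM was 0.96 (SE 0.172) and that of KRT18 was 0.49 (SE 0.153), while KRT8 was at 0.23 (SE 0.138) and KRT19 at 0.15 (SE 0.127). With the longest available length, which includes exons of rare isoforms, the values were 0.68 for VIM, 0.26 for KRT18, 0.08 for KRT8 and 0.10 for KRT19. KRT80 moved from 2.49 to 2.66 and KRT7 stayed at 0.90 under the canonical correction. KRT8 counts corrected with canonical lengths were scaled like CPM, by the library sizes of the deposited counts. They were 389 and 370 in control libraries and 425 and 476 after knockdown, and those of KRT18 were 238 and 206 against 277 and 353. Those of KRT19 were 199 and 170 against 203 and 210. The overlap between groups seen in the deposited counts of these 3 genes was thus not seen with the canonical-length correction, which was chosen after seeing the data. For KRT19 the gap was narrow (199 against 203). Values per library with the longest length are not given here. The size of the difference in KRT18 and VIM depends on the correction. Since the formula stretches larger counts more, larger differences in the same direction were largely built in and add no support.

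**Figure D2:**
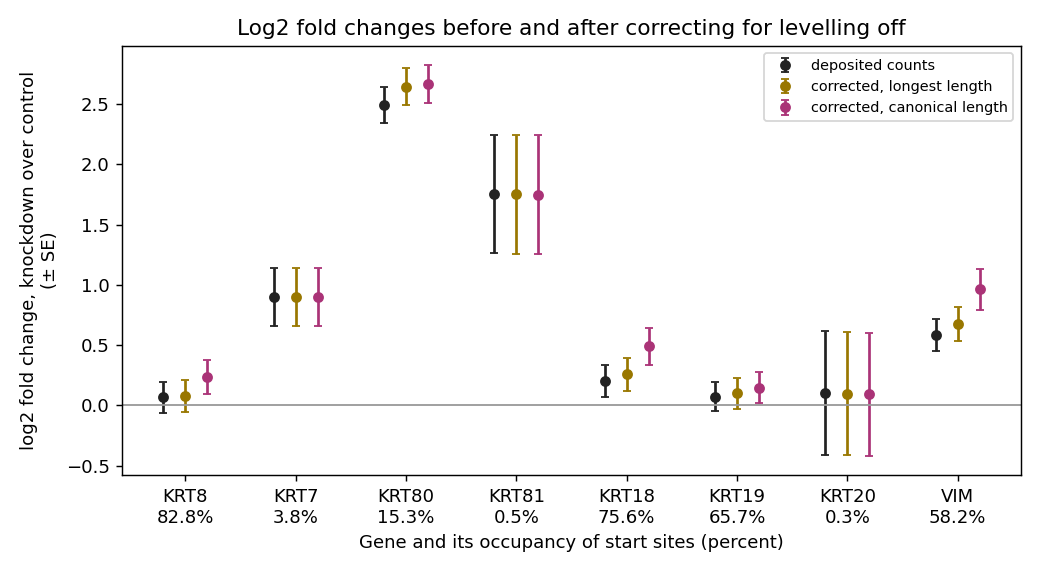
Log2 fold change of knockdown over control with its standard error for the 8 tested genes, from deposited counts and from counts corrected with 2 choices of length; the percent under each gene is its occupancy. The corrected points rise for VIM (0.59 to 0.96) and KRT18 (0.20 to 0.49), whose occupancy is high, and stay in place for KRT7 and KRT81.

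Levels of different genes were compared as CPM per kilobase of canonical transcript. In the controls the order was KRT8 at 106 ± 13.6, KRT18 at 92.3 ± 13.3, KRT19 at 84.1 ± 12.2 and VIM at 60.9 ± 3.80 (SD, n = 2 each). Within each control library these 4 stood in that order. Across the libraries, the higher KRT18 value (102) exceeded the lower KRT8 value (96.4), and the higher KRT19 value (92.8) exceeded the lower KRT18 value (82.9), so those neighbours did not differ beyond their spread. KRT80 followed at 5.93 ± 1.31, KRT7 at 3.41 ± 0.209, and KRT20, KRT81, KRT86 and KRT23 lay between 0.381 and 0.0564. In the knockdown, KRT8 stood at 111 ± 6.89, KRT18 at 106 ± 10.4, VIM at 91.4 ± 14.6, KRT19 at 88.4 ± 3.37 and KRT80 at 33.6 ± 1.79. KRT18 lay above VIM in each knockdown library, while VIM was below KRT19 in the first (81.0 against 86.0) and above it in the second (102 against 90.8). KRT80 lay below these 4 on this scale. With the deposited exon length, which counts every annotated exon, KRT19 came first at 50.1 ± 7.26 followed by KRT18 at 42.5 ± 6.12 and KRT8 at 27.5 ± 3.54 among controls. On that length KRT80 (29.8 ± 1.59) and KRT8 (28.8 ± 1.79) stood side by side after knockdown, within their spread.

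KRT80 took a larger part of the type II pool after knockdown. It made up 4.02% and 6.39% of the summed type II level per kilobase among controls and 23.4% and 20.8% after knockdown. With corrected counts the shares were 2.24% and 3.23% against 14.3% and 11.9%, and with the deposited exon length they were 12.3% and 18.4% against 49.9% and 45.9%. The groups stayed apart on all 3 scales, while the size of the share depends on the length used. The type II sum was 125 and 107 CPM per kilobase among controls and 149 and 156 after knockdown, and the type I sum was 195 and 159 against 185 and 205. The ratio of type I to type II was 1.56 and 1.48 among controls and 1.25 and 1.32 after knockdown. With the deposited exon length it was 2.82 and 2.53 against 1.57 and 1.70. With corrected counts it was 1.37 and 1.23 against 1.19 and 1.29, and the groups overlapped.

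**Figure D3:**
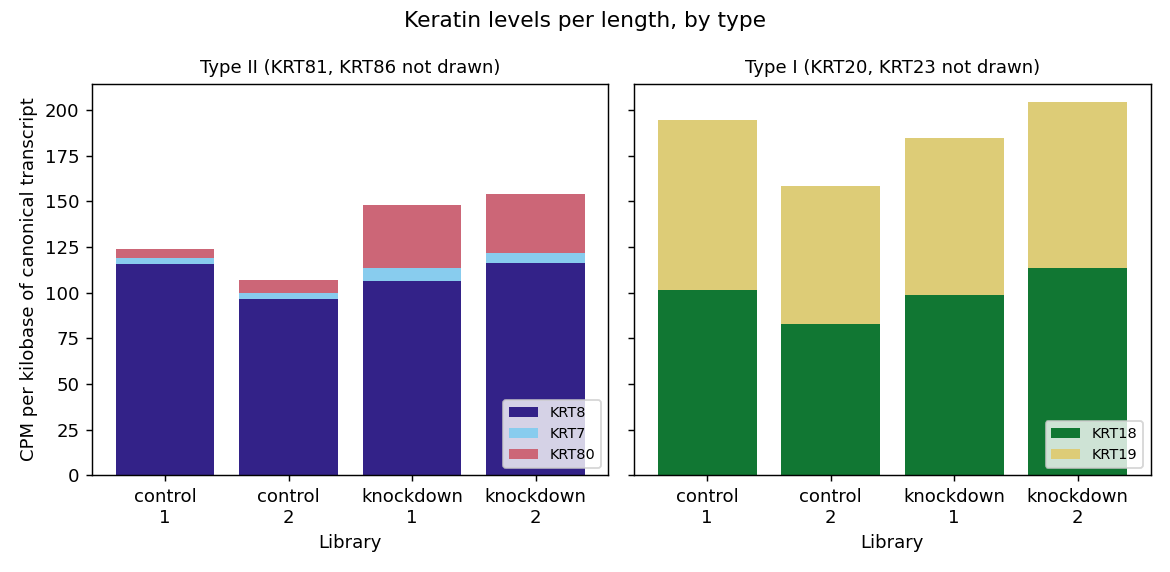
Stacked levels in CPM per kilobase of canonical transcript for the main type II (left) and type I (right) keratins, 1 bar per library. The KRT80 segment widens from 5.01 and 6.86 in the controls to 34.9 and 32.4 in the knockdown libraries, while the KRT8, KRT18 and KRT19 segments overlap between the groups.

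The summed pseudogenes of KRT8 and KRT18 were higher in both knockdown libraries, while the deposited counts of the parent genes overlapped. The 51 KRT8 pseudogenes in the tables summed to 300 and 523 counts in control and 843 and 784 in knockdown libraries, or 22.7 and 30.3 CPM against 52.6 and 52.7 CPM. The 67 KRT18 pseudogenes summed to 5.15 and 6.83 CPM in control libraries and 15.8 and 15.0 CPM after knockdown. Neither sum overlapped between the groups, at 1.99-fold and 2.57-fold. In relation to the parent's own count, the KRT8 copies held 11.0% and 17.6% among controls and 27.7% and 25.5% after knockdown. With the canonical-length corrected count of KRT8 these shares were 5.84% and 8.18% against 12.4% and 11.1%. With that correction the counts of the parents did not overlap either, and were higher after knockdown. With the longest length their log2 fold changes were 0.08 (SE 0.131) for KRT8 and 0.26 (SE 0.136) for KRT18. The 5 KRT19 pseudogenes had 1 count in all.

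Of 150 annotated keratin pseudogenes, 87 had a count and 17 were tested. Of those 17, 9 rose. Only 7 of the 17, and 3 of the 9, reached the level of the filter on low counts (0.640 CPM) in both controls. The others passed it through the knockdown libraries or 1 control, so the direction of those tested is partly set by the filter. The sums over all copies above are free of it. KRT8P46, KRT18P59 and KRT18P5, named below, did not reach that level in both controls, so this limit holds for their p-values. Among all 1116 processed pseudogenes tested, 11.3% were higher and 2.69% lower. KRT8P46 had 8 and 20 counts in control and 71 and 63 in knockdown libraries (log2 fold change 2.25, SE 0.373, edgeR adjusted p = 0.00123). KRT18P59 rose from 8 and 8 to 42 and 45 counts (edgeR adjusted p = 0.00142), and KRT18P5 from 3 and 14 to 48 and 54 (edgeR adjusted p = 0.00212), though KRT18P5 shares 37.0% of its exon bases with KLHL22. Without control replicate 1 the call was kept by 1 of the 9, and without control replicate 2 by 2. The adjusted p of KRT8P46 was then 0.0563 and 0.0357, that of KRT18P59 0.0446 and 0.0683, and that of KRT18P5 0.0640 and 0.0314 (edgeR). No direction changed.

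All 8 tested KRT8 copies and 6 of 7 tested KRT18 copies were above both controls in both knockdown libraries. This held for 32.3% of all tested genes, and the filter partly set the direction of these copies. For each parent, the 2 tested copies most identical to it were not called. Their log2 fold changes were 0.27 and 0.70 (KRT8P3, KRT8P45) and 0.65 and 0.06 (KRT18P17, KRT18P4). KRT18P4, at 91.7%, was barely closer to its parent than the called KRT18P5 at 91.6%. The 8 tested KRT8 copies were 86.1% to 97.1% identical to the KRT8 transcript, and the 5 that rose were 86.1% to 93.8% identical. KRT8P3, singled out afterwards as the closest copy at 97.1%, had 47 and 73 counts in control and 80 and 66 in knockdown libraries (log2 fold change 0.27, edgeR adjusted p = 0.511). The 3 KRT18 copies that rose were 84.2% to 91.6% identical to their parent. Of these 8 copies, 7 lie inside a tested protein-coding gene, whose log2 fold changes ran from -0.14 to 0.58, with 1 of the 7 called higher. Whether the counts of the copies are their own transcripts or reads of KRT8 and KRT18 was not tested.

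**Figure D4:**
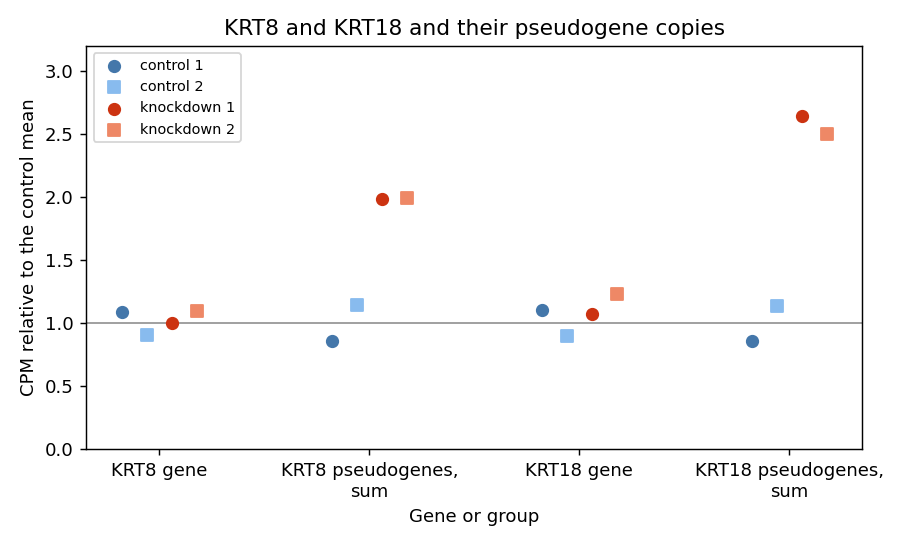
CPM relative to the mean of the 2 controls for KRT8, KRT18 and the sums of their pseudogenes, 1 point per library. The knockdown points of the pseudogene sums lie near 2 for KRT8 and above 2.4 for KRT18, apart from the controls, while those of the parent genes, from deposited counts, overlap the controls.

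Other keratins were mostly too low to test. Of 46 protein-coding keratins outside the list, 35 had a count and 4 were tested, of which 1 rose (median log2 fold change 0.16, beside 0.01 over all genes tested). Of all tested genes, 12.5% were called higher. KRT15, a type I keratin of basal and progenitor cells, had 7.24 ± 0.262 CPM in control libraries and 16.2 ± 2.53 CPM after knockdown (SD, n = 2 each; log2 fold change 1.17, SE 0.219, edgeR adjusted p = 0.00261). Its call did not hold with either control left out (edgeR adjusted p = 0.0739 without replicate 1 and 0.0860 without replicate 2). KRT10, an epidermal type I keratin, had a log2 change of 0.03 and KRT222, a keratin-like gene, of -0.13 (edgeR adjusted p = 0.913 and 0.629). However, KRT222 shares 34.5% of its exon bases with ENSG00000264058 on the same strand. The 8 squamous markers summed to 59.7 to 66.1 CPM in control libraries and 57.8 to 66.6 CPM after knockdown, nearly all of it SFN (62.1 and 60.6 CPM on average), which other epithelia also express. KRT5, KRT14 and TP63 averaged under 0.4 CPM in each group, and IVL was at 0.

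Among 13 tested filament genes that are no keratin, of 17 listed, 2 rose and 2 fell (median log2 fold change 0.16). That is 15.4% each way, near the 12.5% higher and 13.1% lower of all tested genes. NEFH, the heavy neurofilament subunit, had 6 and 9 counts in control and 44 and 46 in knockdown libraries (log2 fold change 2.55, edgeR adjusted p = 0.000970). Both controls were under the filter level of 0.640 CPM, so only a rise could bring NEFH into the test. IFFO2, a filament family orphan, rose from 72.7 ± 2.29 to 161 ± 8.58 CPM (SD, n = 2 each; edgeR adjusted p = 5.39e-05). LMNB2, a B-type nuclear lamin, fell by 1.09 on the log2 scale and BFSP1, a filament gene of the eye lens, was 1.99-fold lower (edgeR adjusted p = 0.000455 and 0.00463). LMNA and LMNB1, the other main lamins, had log2 fold changes of 0.05 and 0.16 (edgeR adjusted p = 0.837 and 0.373). Without control replicate 2, the calls of NEFH and BFSP1 were lost (edgeR adjusted p = 0.0501 and 0.138).

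Of 12 proteins that link or bind these filaments, 1 rose and 4 fell (median log2 fold change 0.19). That is 8.33% higher and 33.3% lower, beside 12.5% and 13.1% of all tested genes. Periplakin (PPL) and envoplakin (EVPL), plakins that pair and tie keratins to junctions, fell by 1.30 and 1.10 on the log2 scale. PPL had 135 ± 11.7 CPM in control libraries and 54.8 ± 4.05 CPM after knockdown, and EVPL had 143 ± 0.957 and 67.0 ± 10.7 CPM (SD, n = 2 each; edgeR adjusted p = 3.66e-05 and 0.000142). FBF1, a keratin-binding protein, fell by 0.64, though it shares 49.6% of its exon bases with ENSG00000267426. The large plakins went the other way or were not called: DST was at 0.53 on the log2 scale (edgeR adjusted p = 0.0280), PLEC at 0.24 (edgeR adjusted p = 0.277) and the desmosomal DSP at 0.28 (edgeR adjusted p = 0.142). The DST call did not hold without control replicate 1, control replicate 2 or knockdown replicate 1 (edgeR adjusted p = 0.164, 0.207 and 0.228; log2 fold change 0.24 in the last), and the FBF1 call without control replicate 2 (edgeR adjusted p = 0.122).

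Transcription and splicing regulators of epithelial and mesenchymal state gave 6 higher and 1 lower of 13 tested, out of 17 (median log2 fold change 0.37). That is 46.2% higher and 7.69% lower, beside 12.5% and 13.1% of all tested genes. The list was chosen with earlier results of these data known. ZEB1 and SNAI2, repressors of epithelial genes, rose, at log2 fold changes of 1.36 and 1.72 (edgeR adjusted p = 0.000142 and 0.000235). KLF4 rose by 0.65 on the log2 scale and GRHL2, which maintains epithelial genes, fell by 1.49, neither of them called when control replicate 1 was left out (edgeR adjusted p = 0.127 and 0.103), nor GRHL2 without control replicate 2 (edgeR adjusted p = 0.0720). Genes that act for the epithelial state also rose, with log2 fold changes of 0.55 for GRHL1, 0.54 for OVOL2 and 0.37 for KLF5 (edgeR adjusted p = 0.0276, 0.0338 and 0.0369). These calls did not hold with plain library totals (0.0636, 0.0527 and 0.0615), where the list had 3 higher and 1 lower, nor with either control left out (edgeR adjusted p from 0.133 to 0.331). Without knockdown replicate 2, GRHL1 and KLF5 were not called either (edgeR adjusted p = 0.148 and 0.161). Of 5 tested colonocyte genes, of 16 listed, only CDX2, the intestinal transcription factor, was called, and fell by 0.47 (edgeR adjusted p = 0.0311). Of all tested genes, 13.1% were called lower. The CDX2 call did not hold when control replicate 1 or 2 was left out (log2 fold change -0.47 and -0.52).

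**Figure D5:**
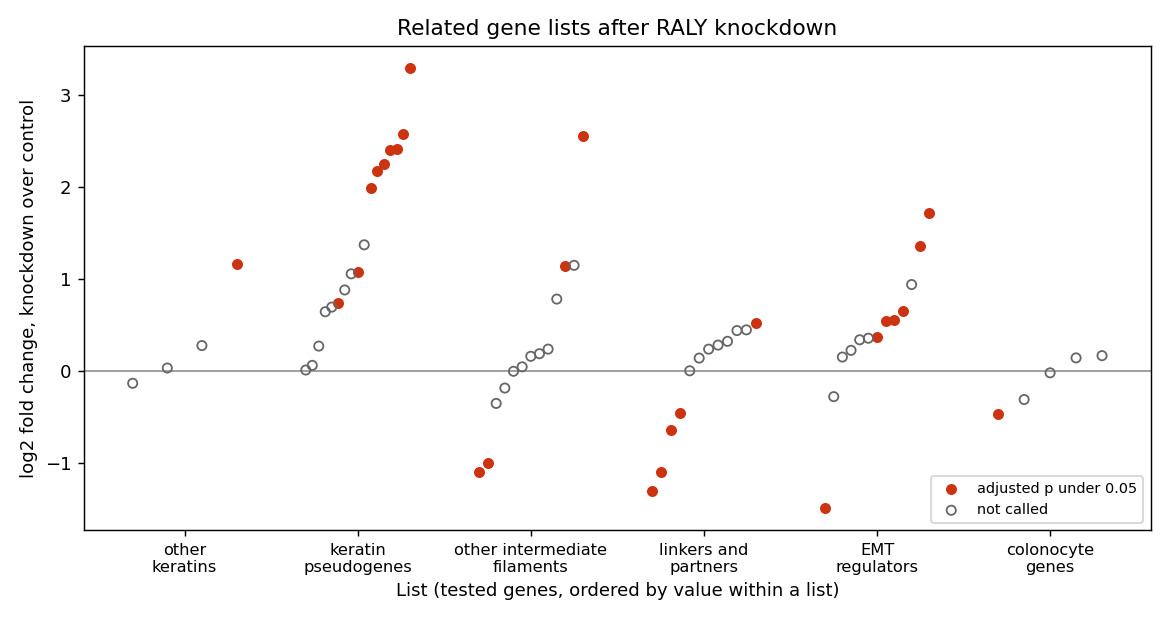
Log2 fold change of knockdown over control for the tested genes of 6 related lists, ordered by value within a list; filled points passed an edgeR adjusted p under 0.05. The 9 called keratin pseudogenes are higher, 3 of them at the level of the filter in both controls, while linkers and other filament genes hold called points on both sides.

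The genes whose pattern over the 4 libraries was most like that of KRT80 were PKD1L1, CCN2 and ADAM32, out of 12412 tested protein-coding genes averaging 5 CPM or more. Likeness was the distance between centred log2 CPM values, at 0.0681, 0.168 and 0.325. PKD1L1 had 2.96 and 4.34 CPM in control libraries and 22.8 and 20.6 CPM after knockdown. CCN2, a matrix protein, had 16.2 and 23.5 CPM against 113 and 121 CPM. With 4 libraries the pattern is set mainly by the difference between the groups. No tested member was lower after knockdown, and KRT86, lower in both knockdown libraries, did not pass the filter on low counts. No likeness to a falling gene was therefore sought.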

How the data were processed

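RNA-seq counts of 4 libraries (2 control, 2 RALY knockdown) were used. Each library has its own deposited table, and its values are raw counts (whole numbers) for every gene, with columns as featureCounts writes them, per the file headers. The exon length of each gene (column of type other) is also deposited. HISAT2 2.0.4, SAMtools, featureCounts and Subread with GRCh38 are named, per the submitters' processing notes, with no role or setting. Of 58884 genes, 58472 were found in GENCODE release 44, which gave names, biotypes and canonical lengths.

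The test was that of edgeR 4.0.16 in R 4.3.3 (filterByExpr, TMM, robust quasi-likelihood F test, Benjamini-Hochberg adjustment over 19686 genes, called at an adjusted p under 0.05). The script was tested on simulated data. The floor of 3 counts is 0.174 to 0.227 CPM and covers counting error only. CPM were scaled by TMM. Corrected counts are -2L ln(1 - count/2L) with L the transcript length; the canonical length gave way to the deposited length where a count exceeded 98% of 2L.

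Genes named are the members, RALY, the 3 called genes with the smallest p in each direction of each list (2 as values where none was called), other keratins with a mean of at least 5 CPM, genes overlapping members and 3 genes most like KRT80. LMNA, LMNB1, PLEC, DSP, KRT8P3, KRT83, VIM-AS1, GRHL1, OVOL2, KLF5 and marker genes were added after their values were seen. The members and lists were chosen with earlier results of these data known.

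Alternatives were DESeq2 1.42.0 (test, size factors), plain totals, other filters on low counts, a replicate block, leaving out 1 library at a time, and corrected counts; the canonical-length correction was chosen after seeing the data. Some items are not reported here.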

Additional observations from a re-analysis of the deposited data

How the results depend on the processing

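RALY was lower, and called, in all 12 alternatives. Leaving out each library in turn gave 984 to 6259 called genes in place of 5048. It gave 2 to 4 for other filament genes (4), 2 to 6 for linkers (5), 2 to 9 for epithelial and mesenchymal regulators (7), 0 to 1 for colonocyte genes (1), 0 to 2 for other keratins (1), 1 to 9 for keratin pseudogenes (9) and -1.96 to -1.76 for RALY on the log2 scale. Such a fit has 1 residual degree of freedom, and a lone library is assumed to vary like the other group. Correlation of replicate differences between the groups was 0.22, but with 2 pairs and 1 cell line in the cell line field the libraries share only a number. The replicate block called 7054 genes and 8 linkers. Plain library totals called 4 regulators. Without a filter on low counts 2 colonocyte genes and 2 other keratins were called. Canonical-length correction moved KRT18 to 0.49 and VIM to 0.96, and KRT20 was at -0.56 without knockdown replicate 1. No listed called gene changed direction. Depth limits KRT20, KRT23, KRT81 and KRT86, and a possible ceiling of 2 counts per base limits KRT8, KRT18, KRT19 and VIM.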
